A study of Mus musculus with 2 samples.

Results

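The genes described here encode splicing factors and heterogeneous nuclear ribonucleoproteins (hnRNPs). They were chosen by name, as every gene with at least 1 probe set of a single symbol beginning with Srsf, Hnrnp, Snrp, Sf3a, Sf3b or Prpf, a rule that uses no measured value. This gave 54 genes of 12393 on the array, measured by 138 probe sets: 9 Srsf genes, 18 Hnrnp genes, 8 Snrp genes, 9 Sf3 genes and 10 Prpf genes. The samples were wild-type cells without genetic modification, sorted by flow cytometry from mouse spleen as positive for both IgM and IgD, which marks mainly mature B cells. Each of 2 samples was hybridised to 1 array after labelling of 6 µg of total RNA. The study asked how loss of serum response factor (SRF), a transcription factor, alters these cells, but the present data hold the wild-type group, and the comparison with SRF-deficient cells was not made. The labels do not give the age, sex or strain of the mice, nor whether these are biological or technical replicates, so the spread between them may be technical.

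Introns are removed by the spliceosome, which is assembled from small nuclear ribonucleoproteins (snRNPs). The Snrp genes encode proteins of these particles, among them the Sm proteins that form a ring on the snRNA. The Sf3a and Sf3b genes encode the complexes that help the branch-site snRNP hold the intron, and the Prpf genes encode proteins named for the yeast pre-mRNA processing mutants, several of which act in the tri-snRNP or in activation of the spliceosome. SR proteins, encoded by the Srsf genes, carry a domain rich in arginine and serine, bind exons and mostly favour their inclusion. Many hnRNPs bind the same transcripts and often oppose the SR proteins. In lymphocytes, this balance sets isoforms such as those of the phosphatase CD45, and in B cells the processing of the heavy chain transcript sets IgM against IgD and membrane against secreted forms.

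In the promoter windows of these genes, letters known as the binding motif of ETS transcription factors were found in a larger share than over all genes. The windows span 250 bases before and 50 after an annotated start, in RefSeq sequence of GRCm38.p6, and 49 of the 54 genes had at least 1. CCGGAAGT, searched on both strands, stood in a window of 11 of these 49 genes, or 22.4%, against 10.9% of the array genes above the expression floor defined below, 7.23% of 9887 array genes with a window and 4.31% of all 27025 genes with one. The 11 genes were Hnrnpd, Hnrnpf, Prpf4b, Prpf6, Sf3a1, Sf3a3, Sf3b2, Snrpe, Srsf4, Srsf5 and Srsf11. The CArG box, the motif of SRF, was found in 1 of the 49, Hnrnpd, or 2.04%, against 1.75% of the array genes and 1.81% of all genes. CCGGAAGT was chosen for display after the shares of 8 motifs were seen. For 4 others, the share of the 49 genes and of the array genes was 53.1% and 42.3% for CCAAT, 12.2% and 11.9% for TATAAA, 6.12% and 4.39% for AAGATGGC and 2.04% and 2.99% for TGACGTCA. For the NRF1 motif they were 2.04% and 1.82%, and for a palindrome around CGCG 2.04% and 0.981%. A gene with several annotated starts has more chances of a match, which these shares do not take into account. These shares describe letters in a window, on either strand, and were not tested, and binding was not measured.

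The 250 bases before 1 annotated start are shown for Srsf5, Sf3b2 and Srsf11, because each holds the motif while their signals by the brightest probe set, given below, were respectively over 2-fold higher on replicate 1, over 2-fold higher on replicate 2 and within 2-fold. Capitals mark CCGGAAGT or its reverse complement ACTTCCGG. The Srsf5 window lies at chr12:80945249-80945498 on the plus strand, the Sf3b2 window at chr19:5295458-5295707 on the minus strand and the Srsf11 window at chr3:158031749-158031998 on the minus strand.
Srsf5: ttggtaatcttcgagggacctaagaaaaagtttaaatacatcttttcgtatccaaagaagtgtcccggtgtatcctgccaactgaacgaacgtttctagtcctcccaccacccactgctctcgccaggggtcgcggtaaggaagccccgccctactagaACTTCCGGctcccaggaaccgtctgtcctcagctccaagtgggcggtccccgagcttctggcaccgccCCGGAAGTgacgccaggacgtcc
Sf3b2: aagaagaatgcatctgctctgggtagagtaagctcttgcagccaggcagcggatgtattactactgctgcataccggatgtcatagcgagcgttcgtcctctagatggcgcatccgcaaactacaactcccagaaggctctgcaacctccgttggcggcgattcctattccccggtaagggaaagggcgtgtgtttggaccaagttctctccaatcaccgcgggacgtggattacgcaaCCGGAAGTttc
Srsf11: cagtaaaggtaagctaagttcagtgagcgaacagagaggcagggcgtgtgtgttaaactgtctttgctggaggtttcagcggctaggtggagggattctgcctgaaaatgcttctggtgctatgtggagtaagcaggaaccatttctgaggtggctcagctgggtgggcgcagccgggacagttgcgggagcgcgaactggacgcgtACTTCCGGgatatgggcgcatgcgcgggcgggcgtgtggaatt
Srsf5 holds the motif at 91 bases and again at 23 bases before its start, counted to the first base of each match. The single match of Srsf11 begins 43 bases before the start and that of Sf3b2 11 bases before it.

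Levels are MAS5 signals, intensities on a linear scale computed per probe set. A gene counted as above the floor if at least 1 of its probe sets exceeded the floor on both arrays. For each array the floor was set at the 90th percentile over 87 probe sets that measure 52 genes known from other organs, which came to 145 on replicate 1 and 97.9 on replicate 2. Where a gene has several probe sets, the one with the highest mean log2 signal is given. Paired signals below give replicate 1 first and replicate 2 second. Probe affinity varies, so signals do not rank genes by their RNA. Of 11 measured B cell markers, 10 were above the floor on both arrays, against 1 of 10 T cell markers (Zap70), 5 of 14 myeloid markers (Csf1r, Lyz2, Ngp, S100a8 and S100a9) and 2 of 15 markers of NK, erythroid, platelet, dendritic and stromal cells (Itga2b and Itgax). The ratio of 3′ to 5′ signal of the Actb control was 3.57 on replicate 1 and 8.15 on replicate 2, and that of Gapdh was 1.31 and at least 8.42, where the 5′ signal on replicate 2 was below the floor and was taken at the floor, against a 3′ signal of 824. The ratio for 18S rRNA went the other way, with 1.18 and 0.19, as did the ratio of 3′ to middle signal of Actb, with 4.23 and 3.07. The ratio of 3′ to middle signal of Gapdh was 1.08 and at least 8.42, with the middle signal on replicate 2 also taken at the floor. The part of these differences in the values below was not tested.

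Most of the 54 genes were detected in both wild-type samples, which are bulk RNA, so that fewer expressing cells and less RNA per cell cannot be told apart. Of them 44, or 81.5%, were above the floor on both arrays, against 32.5% of all genes. The genes have more probe sets each than most, which gives each gene more chances to pass. Of the 18 genes with a single probe set, 12 passed, or 66.7%, against 23.0% of all 7437 such genes. Counted by probe set, 86 of 138 were above both floors, or 62.3%, against 26.5% of all probe sets with 1 symbol. No p-value was computed, since 2 samples of 1 group form no contrast.

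**Figure D1:**
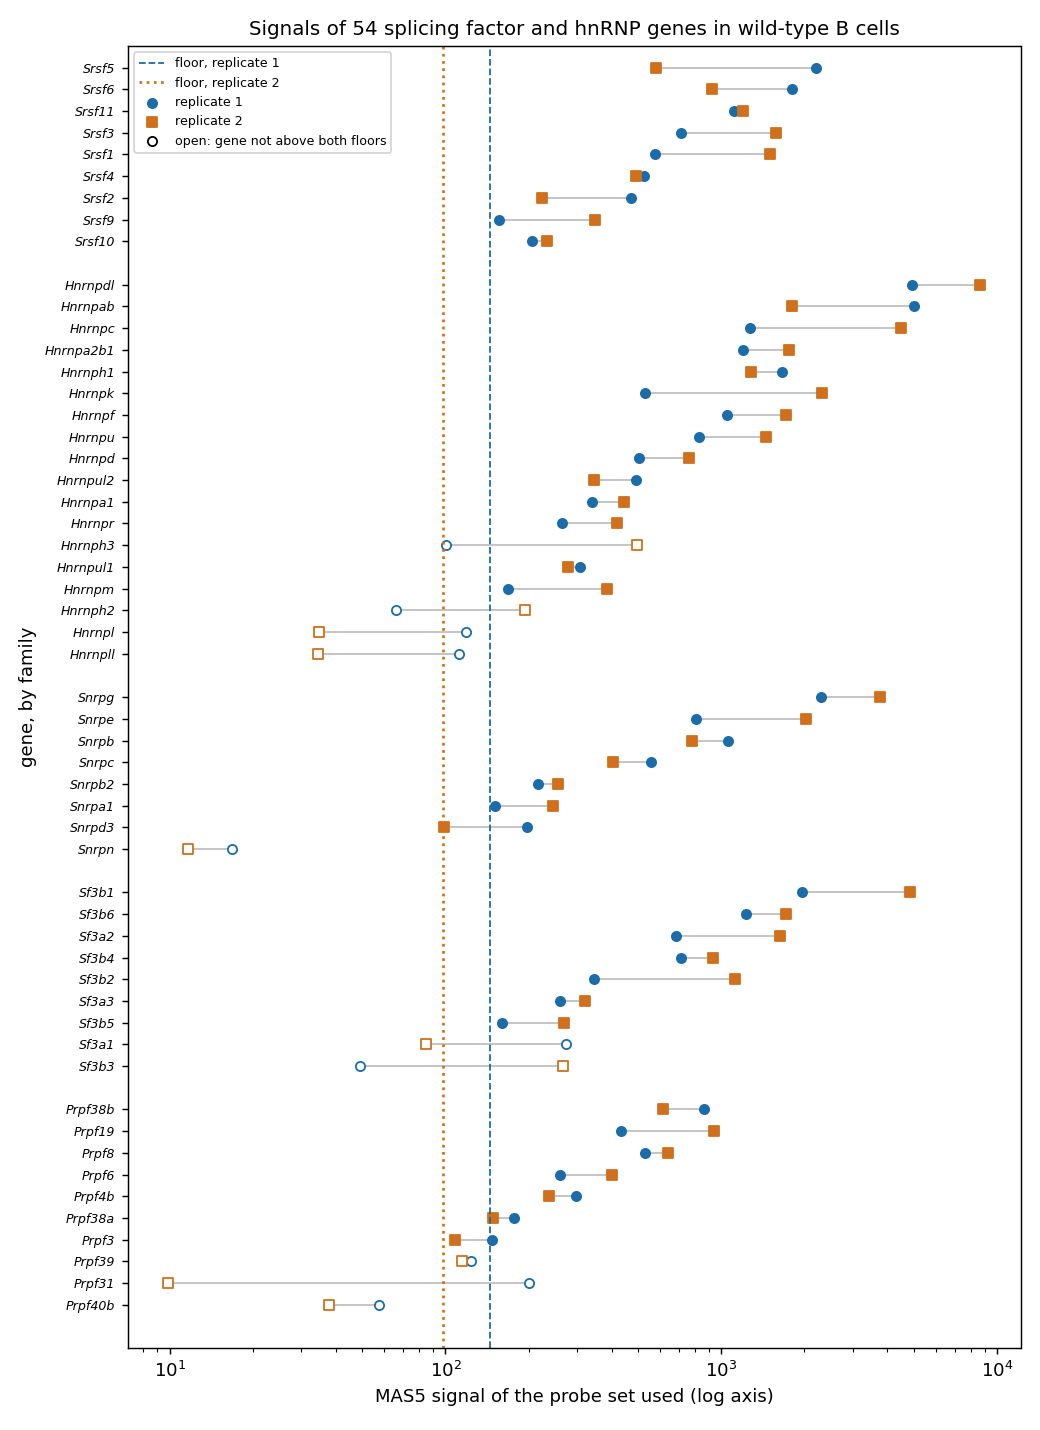
MAS5 signal on a log axis of the probe set used for each of the 54 genes, grouped by family, with replicate 1 as circles and replicate 2 as squares. The vertical lines are the floors of 145 and 97.9. The 44 filled genes lie above the floor on both arrays by at least 1 probe set, and the 10 open genes do not.

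All 9 SR protein genes were above the floor on both arrays. Srsf5, an SR protein gene that responds to growth signals in other cells, gave 2209 and 582, a mean of 1395 ± 1150.4 (SD, n = 2), and was 3.80-fold higher on replicate 1. Srsf6, a regulator of exon inclusion, gave 1803 and 923, just inside the 2-fold range at 1.95-fold. Srsf2, also known as SC35, a marker of nuclear speckles, gave 472 and 224 and was 2.11-fold higher on replicate 1. These 3 genes had the lower signal on replicate 2 as deposited, after quantile normalization and after centring.

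Srsf1, the founding SR protein gene, stood the other way, with 573 and 1507, 2.63-fold higher on replicate 2. Srsf3, the smallest SR protein, gave 712 and 1574, 2.21-fold higher on replicate 2 judged by the brightest of its probe sets. Srsf9 gave 156 and 349.7 and was 2.24-fold higher there. The SR protein genes were thus split, with 3 beyond 2-fold toward replicate 2 and 2 beyond 2-fold toward replicate 1, where 14.7% and 10.1% of all genes above the floor were.

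The other 3 SR protein genes were within 2-fold by the brightest probe set. Srsf11 gave 1113 and 1197, a mean of 1155 ± 59.2 (SD, n = 2), but its other probe set above both floors gave 186 and 379.7, 2.04-fold higher on replicate 2. Srsf4 gave 524 and 489, a mean of 507 ± 24.9 (SD, n = 2). Srsf10, whose dephosphorylated product represses splicing in heat shock and mitosis, gave 206 and 233. Another Srsf10 probe set above both floors gave 322 and 132, 2.44-fold higher on replicate 1. The gene stood at -1.12 on the log2 scale after quantile normalization, where the brightest probe set was chosen anew and may differ. The log2 difference, replicate 2 minus replicate 1, ranged from -1.92 to 1.40 over the family, the widest span of the families apart from Hnrnp, and its median was 0.10.

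Among the hnRNP genes, 14 of 18 were above the floor on both arrays. Hnrnpdl, which encodes a relative of hnRNP D, gave 4924 and 8651, a mean of 6787 ± 2636 (SD, n = 2). Hnrnpab gave 4972 and 1796 and was 2.77-fold higher on replicate 1. Hnrnpc, whose product binds uridine tracts and masks cryptic exons, gave 1272 and 4479.8 and was 3.52-fold higher on replicate 2. Of the 14, Hnrnpab was the only one over 2-fold higher on replicate 1.

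Hnrnpk, which encodes a KH-domain protein that binds cytidine-rich RNA, gave 527 and 2308 and was 4.38-fold higher on replicate 2. Hnrnpm gave 168 and 385, 2.29-fold higher there. Of the 14 Hnrnp genes above both floors it was thus the third of 3 such genes, beside Hnrnpc and Hnrnpk. Hnrnph1, a binder of guanosine runs, gave 1659 and 1277. Its relative Hnrnpf gave 1047 and 1716.

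Several of the best known hnRNP genes lay within 2-fold. Hnrnpa1, a repressor of exon inclusion, gave 341 and 442. Hnrnpa2b1 gave 1203 and 1757, a mean of 1480.0 ± 392 (SD, n = 2). Hnrnpu, a nuclear matrix protein gene, gave 832 and 1452. These 3 were each higher on replicate 2, by less than 2-fold. Hnrnpa1 and Hnrnpa2b1 turned to -0.50 and -0.16 on the log2 scale after quantile normalization, where the brightest probe set was chosen anew and may differ. By the probe set used, Hnrnpd and Hnrnpr were also higher there under each scaling, Hnrnpd, also known as AUF1, a binder of AU-rich elements, with 503 and 761, and Hnrnpr with 264 and 417. The hnRNP U-like genes went the other way as deposited, though not after centring, Hnrnpul1 with 308 and 277 and Hnrnpul2 with 491 and 346. The second Hnrnpul2 probe set gave 225 and 446, so the direction of that gene was not settled.

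The 4 Hnrnp genes not above the floor on both arrays included 2 regulators of CD45 splicing. Hnrnpll, a CD45 exon silencer of activated T cells and plasma cells, gave 112 and 34.4, below both floors, where its other probe set lay too. Hnrnpl, its ubiquitous relative, gave 119 and 34.7 by its only probe set and was below them as well. Hnrnph2 with 66.4 and 194 and Hnrnph3 with 100.2 and 493 were above the floor on replicate 2 alone. A signal below the floor does not show that the transcript was absent.

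Of the snRNP protein genes, 7 of 8 were above the floor on both arrays. Snrpg, an Sm protein gene, gave 2294 and 3745, a mean of 3019 ± 1026 (SD, n = 2). Snrpe, another Sm protein gene, gave 807 and 2034 and was 2.52-fold higher on replicate 2. Snrpb, which encodes the Sm proteins B and B′, gave 1057 and 783, a mean of 919.9 ± 193 (SD, n = 2). The Sm protein genes differed in direction by the probe set used, also after quantile normalization and, through Snrpd3 alone, after centring. Snrpd3 gave 198 and 98.7, 2.01-fold higher on replicate 1 with a replicate 2 signal just above the floor of 97.9. Another Snrpd3 probe set, above the floor of replicate 2 alone, gave 109.5 and 164. The second Snrpg probe set, above both floors, gave 822 and 416, 1.97-fold higher on replicate 1. The direction of these 2 genes was thus not settled.

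The particle-specific proteins lay within 2-fold by the brightest probe set. Snrpc, of the snRNP that recognises the 5′ splice site, gave 557 and 406. Snrpa1 and Snrpb2, partners in the branch-site snRNP, gave 152 and 245, and 217 and 256. The second Snrpb2 probe set gave 368 and 151, 2.44-fold higher on replicate 1. The gene stood at -1.23 on the log2 scale after quantile normalization, where the brightest probe set was chosen anew and may differ. Snrpn, an imprinted gene of neurons whose product stands in for that of Snrpb, gave 16.9 and 11.7, far below both floors. It was the only Snrp gene not above the floor on both arrays.

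Of the Sf3 genes, 7 of 9 passed the floor on both arrays, and by the brightest probe set all 7 had their higher signal on replicate 2, though Sf3b4 and Sf3b6 turned to -0.20 and -0.22 on the log2 scale after quantile normalization, and Sf3b4 and Sf3a2 to -0.54 and -0.15 when probe sets above both floors were averaged. Sf3b1, the scaffold that holds the branch-site helix and a gene recurrently mutated in chronic lymphocytic leukaemia, gave 1965 and 4830.0, 2.46-fold higher on replicate 2. Sf3b2 gave 345 and 1121, 3.25-fold higher there. Sf3a2 gave 687 and 1629, 2.37-fold higher by the brighter of its probe sets. The Sf3 median was 0.75 as deposited and 0.62 after quantile normalization, but 0.29 when the probe sets of a gene above both floors were averaged.

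The small subunits of the complex were within 2-fold by the brightest probe set. Sf3b6, whose product contacts the branch adenosine, gave 1229 and 1716, a mean of 1472 ± 345 (SD, n = 2). Sf3b4 gave 712 and 935, but its other probe set gave 605 and 219, 2.77-fold higher on replicate 1. Sf3b5 gave 159.9 and 269. Sf3a3, of the trimer that joins the branch-site snRNP, gave 261 and 319. The largest subunit of that trimer, Sf3a1, gave 273 and 85.3 and passed the floor of replicate 1 alone, while Sf3b3, a beta-propeller subunit, gave 49.0 and 266 and passed that of replicate 2 alone.

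Of the Prpf genes, 7 of 10 passed the floor on both arrays. Over these 7 the pooled SD of log2 signal was 0.41, the lowest of the 5 families, against 0.67 over the 44 genes. Prpf31, with 202 and 9.90, was below the floor of replicate 2 and is not in this value. Prpf8, the core protein that lines the catalytic centre, gave 529.9 and 641, a mean of 586 ± 78.8 (SD, n = 2). Prpf19, a ubiquitin ligase that activates the spliceosome, gave 432 and 939.7. Of the 7 Prpf genes above both floors it was the only one over 2-fold apart, by 2.17-fold. Prpf38b gave 863 and 617, and Prpf6, a bridging protein of the tri-snRNP, gave 259.9 and 403.

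The remaining Prpf genes included the 3 that did not pass the floor on both arrays. The kinase gene Prpf4b gave 298 and 238, Prpf38a gave 177 and 149 and the tri-snRNP gene Prpf3 gave 148 and 108. Prpf31, a tri-snRNP gene in which mutations cause retinitis pigmentosa, gave 202 and 9.90 and passed the floor of replicate 1 alone. Prpf40b, a relative of a yeast protein of the first intron complex, gave 57.3 and 37.8, below both floors. Prpf39 gave 124 and 115 by the brightest of its probe sets, above the floor on replicate 2 only, and its other probe sets gave 156 and 72.1, and 61.1 and 105, so that no single probe set passed on both arrays.

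Between the 2 wild-type arrays, 15 of the 44 genes above the floor were over 2-fold apart by the probe set used, or 34.1%, against 24.8% of 4003 such genes overall. Of these, 11 were higher on replicate 2, or 25% of the 44, where the share over all genes was 14.7%, and 4 were higher on replicate 1, or 9.09% of them, where it was 10.1%. The pooled SD of log2 signal was 0.67, close to the 0.64 over all genes. The median difference was 0.44, against 0.04 over all genes, and 29 of the 44 were higher on replicate 2. These differences lie within 1 group, and they measure the spread between samples of that group.

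The balance of calls changed with how the arrays were scaled and which probe sets were used. The size of this shift against all genes changed too, except with centring. After quantile normalization 5 genes lay over 2-fold up on replicate 2 and 7 lay over 2-fold up on replicate 1, with a median of 0.03. These were 11.4% and 15.9% of the 44, against 10.3% and 9.54% over all genes. Centring each array on its median, which moves the difference of every gene by 0.63 on the log2 scale, gave 24 and 1. These were 54.5% and 2.27% of the 44, against 36.1% and 1.97% over all genes. The median of the 44 stayed 0.40 above that of all genes, as without centring. Averaging a gene's probe sets above the floor gave 8 and 3, with a median of 0.06. These were 18.2% and 6.82%, against 10.3% and 9.48% over all genes. Hnrnpc, Hnrnpm, Sf3b2 and Srsf9 were over 2-fold higher on replicate 2 as deposited and under all 3 of these alternatives, and Srsf5 was over 2-fold higher on replicate 1 in the same way. Hnrnpc, Hnrnpm, Srsf9 and Srsf5 each rested on 1 probe set above both floors. Averaging all probe sets of a gene, also those below a floor, brought Hnrnpc to 0.54 and Sf3b2 to 0.19 on the log2 scale. Hnrnpm, Srsf9 and Srsf5, with a single probe set each, cannot change in this way. The probe set used for Sf3b2 ends in _x_at, a class that can bind related sequences, as do those of Hnrnpf and Prpf6, and without this class the log2 difference of Sf3b2 was 0.92.

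**Figure D2:**
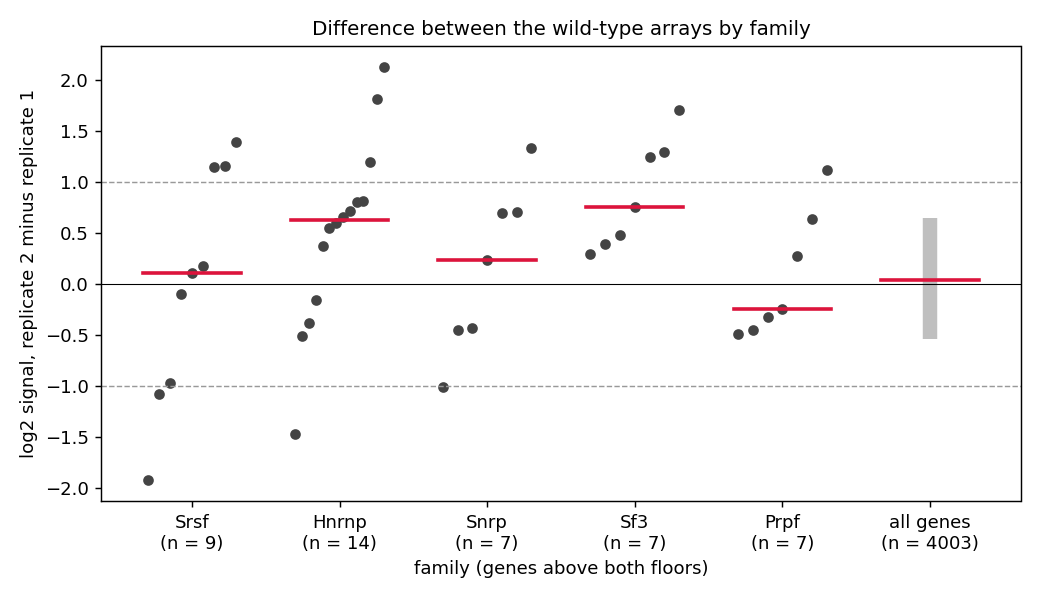
Log2 signal of replicate 2 minus replicate 1 for each of the 44 genes above both floors, by family, with family medians as red lines and dashed lines at 2-fold. The grey bar is the range from the lower to the upper quartile over all 4003 genes, -0.54 to 0.65. All 7 Sf3 genes lie above 0 by the probe set used, of which Sf3b4 and Sf3b6 fall below it after quantile normalization and Sf3b4 and Sf3a2 when probe sets are averaged, and the Srsf genes spread to both sides.

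By family, the median difference was 0.63 for Hnrnp and 0.75 for Sf3, which after quantile normalization were 0.08 and 0.62. It was 0.10 for Srsf and 0.24 for Snrp, which turned to -0.55 and -0.59 after quantile normalization. For Prpf it was -0.24, which turned to 0.04 after quantile normalization and 0.39 after centring, where the median over all genes was 0.67. Counts beyond 2-fold, toward replicate 2 first and toward replicate 1 second, were 3 and 2 of 9 for Srsf and 3 and 1 of 14 for Hnrnp. They were 1 and 1 of 7 for Snrp, 3 and 0 of 7 for Sf3, and 1 and 0 of 7 for Prpf. The shares over all genes were 14.7% and 10.1%. Differences between families were not tested.

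Different probe sets of 1 gene often disagreed. Of 26 genes with at least 2 probe sets above both floors, 15 had probe sets that pointed in opposite directions, or 57.7%, against 52.0% of 981 genes overall. These were Hnrnpa1, Hnrnpab, Hnrnpdl, Hnrnpk, Hnrnpr, Hnrnpul2, Prpf38b, Sf3a2, Sf3b4, Sf3b6, Snrpb2, Snrpg, Srsf3, Srsf6 and Srsf10. In 2 of the 26, Srsf3 and Sf3a2, probe sets were over 2-fold apart in both directions, or 7.69% against 3.77% overall. Srsf3 gave 712 and 1574 by its brightest probe set and 396 and 147 by another. Sf3a2 gave 687 and 1629 by its brightest and 302 and 104 by the other.

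The folds of Hnrnpab and Hnrnpk also rested on 1 probe set among several. The brightest Hnrnpab probe set gave 4972 and 1796, whereas another gave 562 and 631 and a further one 470.2 and 821. The brightest Hnrnpk probe set gave 527 and 2308, whereas another gave 932 and 792. The brightest Hnrnpdl probe set, with 4924 and 8651, was likewise opposed by another with 652 and 307. For these genes the 2 arrays give no settled direction.

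In contrast, Srsf1, Srsf2 and Prpf19 were over 2-fold apart in 1 direction by both of their probe sets above the floors, as deposited. After quantile normalization Srsf1 and Prpf19 came within 2-fold, at 0.83 and 0.72 on the log2 scale, as did Srsf2 after centring, at -0.44. Averaging all probe sets of a gene, also those below a floor, gave 0.05 for Srsf1, -2.00 for Srsf2 and 0.89 for Prpf19. The second probe set of Srsf1 gave 291 and 634. The second of Srsf2 gave 588 and 159.7, and that of Prpf19 gave 428 and 893. For Sf3b1 the second probe set gave 1451 and 2799.7 and for Sf3b2 188 and 356, both higher on replicate 2 and just within 2-fold. A further Sf3b2 probe set, above the floor of replicate 1 alone, went the other way with 246 and 57.7, 4.26-fold higher on replicate 1. Another, above that of replicate 2 alone, gave 144 and 169. All 4 probe sets of Hnrnpa2b1 were above both floors with log2 differences from 0.18 to 0.66, and the 4 of Hnrnpu above both floors ranged from 0.23 to 0.91.

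**Figure D3:**
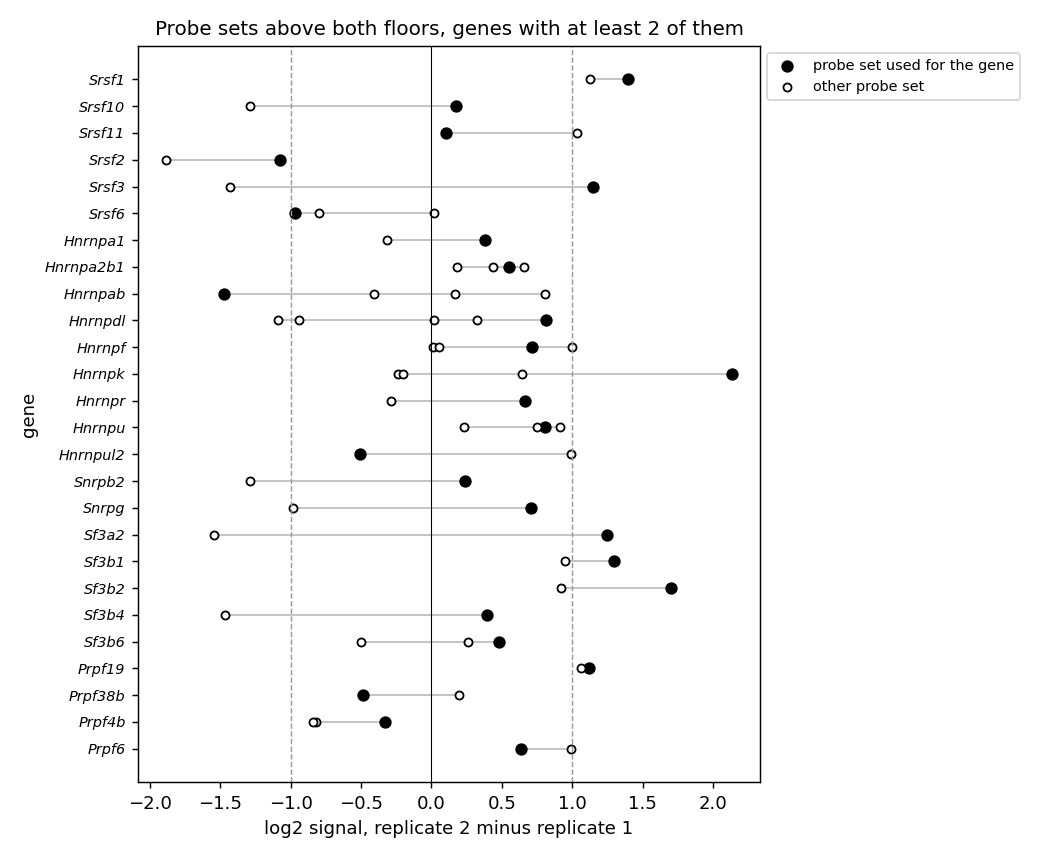
Log2 signal of replicate 2 minus replicate 1 for every probe set above both floors, for the 26 genes with at least 2 of them. Filled points are the probe sets used for the gene, and dashed lines mark 2-fold. Srsf3 and Sf3a2 have points beyond both dashed lines, while the points of Hnrnpa2b1, Hnrnpu and Prpf19 lie close together.

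Probe sets that failed on 1 array did so more often on replicate 1. Of the 138 probe sets, 52 were not above both floors. Of these, 23 were above the floor of replicate 2 alone, 6 above that of replicate 1 alone and 23 above neither. Over all 20380 probe sets with 1 symbol, 2559 were above the floor of replicate 2 alone and 2220 above that of replicate 1 alone. Hnrnpr illustrates this, with a probe set at 8.80 and 257, as does Hnrnpu with one at 12.3 and 183. Srsf3 had 3 such probe sets, with 137 and 509, 97.1 and 447, and 38.2 and 148. The floor of replicate 1 was the higher, 145 against 97.9, and the Srsf3 signal of 137 lay between them. The part of the floors in these counts was not tested.

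Other genes of the splicing pathway, taken from 5 lists, were also mostly detected. Without Prpf4b, which stands among the Prpf genes too, 88 of 119 measured genes were above the floor on both arrays, or 73.9%. Of the 88, without further scaling, 21 exceeded 2-fold toward replicate 2 and 5 toward replicate 1, or 23.9% and 5.68%, against 14.7% and 10.1% over all genes. By list, 49 of 59 genes of the core spliceosome passed, 24 of 32 other splicing regulators, 8 of 10 genes of SR protein kinases and import, 5 of 8 of the exon junction complex and its partners, and 3 of 11 of snRNP assembly. The last share, 27.3%, was below the 32.5% over all genes, and counted on 1 array it was 3 of 11 on replicate 1 and 8 of 11 on replicate 2.

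**Figure D4:**
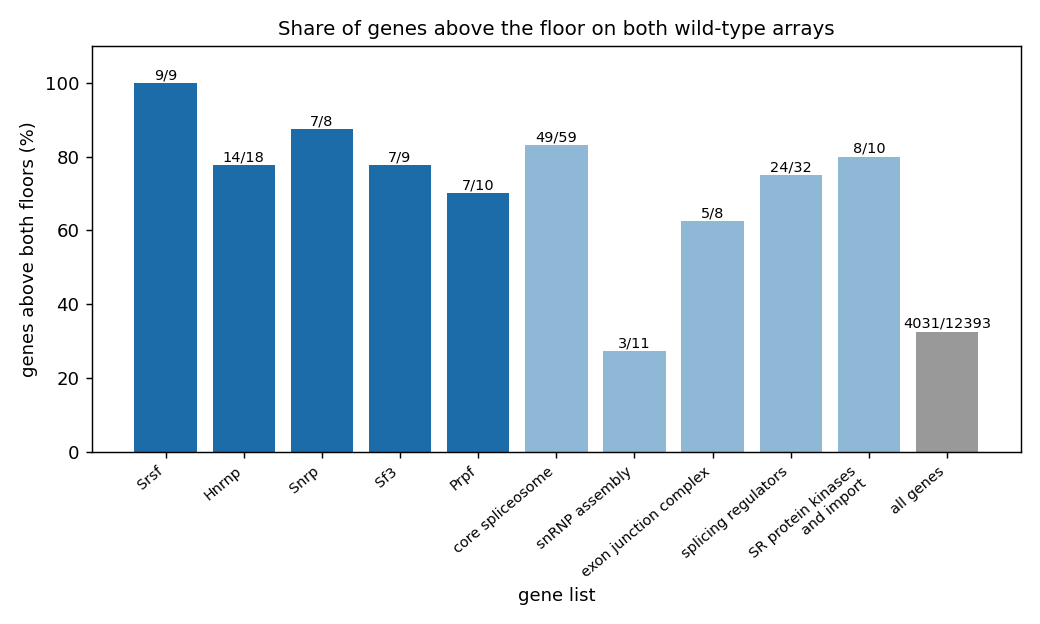
Percentage of genes above the floor on both arrays for the 5 families (dark bars), 5 other splicing lists (light bars) and all genes (grey), with counts above the bars. All 9 Srsf genes pass, whereas 3 of 11 snRNP assembly genes do, against 32.5% of all genes.

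The kinases that phosphorylate SR proteins were within or near 2-fold. Clk1, which releases SR proteins from speckles, gave 2288 and 2824. Srpk2 and Srpk3 gave 261 and 535, and 317 and 660.1, 2.05-fold and 2.08-fold higher on replicate 2. Tnpo3, the import receptor of SR proteins, gave 397 and 258. Clk2 gave 540.4 and 694, Clk3 gave 203 and 294 and Dyrk1a gave 168 and 125, all within 2-fold.

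Among the 49 core spliceosome genes above the floor, 10 exceeded 2-fold toward replicate 2 and 4 toward replicate 1, or 20.4% and 8.16%. Luc7l2 and Luc7l3, relatives of a yeast protein of 5′ splice site choice, gave 263 and 1089, and 292 and 1165. Usp39, of the tri-snRNP, gave 193 and 942, the largest difference of the list, though its other probe set above the floors differed by 0.36 on the log2 scale. Zmat2, Cwc22 and Rbm22 were the furthest apart the other way, 2.47-fold, 2.42-fold and 2.40-fold higher on replicate 1. Dhx15, the helicase that releases the intron lariat, gave 902 and 1419, Bud31 gave 658 and 1541, and Lsm4, of the ring on U6 snRNA, gave 920.1 and 587. Over their probe sets above the floors, the log2 difference went down to 0.32 for Luc7l2 and -0.42 for Bud31, and up to 1.73 for Dhx15.

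Among the 24 other regulators above the floor, 7 exceeded 2-fold toward replicate 2 and 1 toward replicate 1, or 29.2% and 4.17%. Mbnl1, a muscleblind splicing regulator, gave 1901 and 4766. Toward replicate 2, Matr3, Nono and Pcbp1 differed by 3.78-fold, 3.42-fold and 3.19-fold, while Rbfox2 was 3.11-fold higher on replicate 1. The other probe sets of Matr3 and Nono above the floors differed by 0.55 and 0.09 on the log2 scale. Tra2b, an SR-like activator, gave 1263 and 1330.0 by the brighter of its probe sets and a log2 difference of -1.21 by the other, and Rbm5 gave 1345 and 1666, with probe sets up to 1.15. Elavl1, with 363 and 205, and Raly, with 279.8 and 189.6, were within 2-fold.

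In the exon junction and assembly lists, differences over 2-fold were seen in 1 gene each. Srrm1, an SR-related coactivator, gave 258 and 974, but its other probe sets ranged down to -0.20 on the log2 scale. Clns1a, a chaperone that presents Sm proteins to the assembly machinery, gave 782 and 2639, with another probe set at 0.12. Rnps1 and Rbm8a, of the exon junction complex, gave 768 and 1058, and 578 and 686. Probe sets of Rnps1 ranged from -0.14 to 0.91. Gemin7 and Strap, of the SMN complex that loads Sm rings, gave 177 and 253, and 398 and 541.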

How the data were processed

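The values were deposited as linear signal intensities per probe set, computed by the authors with MAS5 per the submitters' processing notes, with version and parameters not given in the sources used here. Trimmed means (2% at each end) of 150.0 and 150.1 on the 2 arrays show scaling to a common target, which also scales background. Precision is limited by the number of arrays.

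Of 22690 probe sets, 64 controls were left out, 20380 named 1 gene, 691 several and 1555 none; 14 of the 691 included a name matching the pattern and were not used. All 54 Entrez identifiers matched RefSeq (GRCm38.p6) with no symbol changed. The members, lists, floor genes and alternatives were chosen with earlier results of these data known; the promoter motifs other than the CArG box were added later.

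Each difference is a log2 signal on replicate 2 less that on replicate 1; pooled SDs are over genes above both floors. Values are given for members over 2-fold apart, not above both floors, with opposed probe sets, or among the 4 brightest of a family, and the rest are added; from other lists, the 3 brightest and the 3 furthest apart each way. Protein features were not computed. Python 3.11.15, numpy 2.4.6 and pandas 2.3.3 were used, with the counting tested on simulated data.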

Additional observations from a re-analysis of the deposited data

How the results depend on the processing

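The count of genes above the floor stayed within 1.5 times of 44 under all alternatives (floors at the 95th percentile or the array median, no floor, quantile normalization, median centring, log2(signal + 32), no _x_at probe sets, means over probe sets). Without a floor all 54 genes pass by rule. Median centring and log2(signal + 32) move signals and floors together, and quantile normalization keeps the order of signals on an array. The count under these was thus largely fixed in advance. It was 37 with the 95th percentile, 46 with the array median and 34 with the mean over all probe sets. Without replicate 1 it was 48, and without replicate 2 it was 47. The counts over 2-fold higher on replicate 2 and 1, 11 and 4 as reported, were 5 and 7 with quantile normalization, 24 and 1 with median centring, 5 and 1 with the mean over all probe sets, and the second was 8 with no floor. The shares over all genes, 14.7% and 10.1% as reported, moved too. They were 10.3% and 9.54%, 36.1% and 1.97%, and 9.05% and 9.85% in the same order, and the second was 33.3% with no floor. The Srsf median moved from 0.10 to -0.55 with quantile normalization, and the Snrp median from 0.24 to -0.59 there, -0.42 with log2(signal + 32) and -0.43 when probe sets above both floors were averaged. Quantile normalization re-chose some probe sets, as did log2(signal + 32), which moved Snrpb2 to its other probe set above both floors. Snrp genes above the floor fell to 4 with the mean over all probe sets, as did kinase and import genes, to 5. snRNP assembly genes above the floor, 3 as reported, were 7 with the array median as floor and 11 with no floor, and without a replicate ranged from 3 to 8; exon junction genes were 8 with no floor. Leaving out replicates gave 9 for Srsf each time, 14 to 16 for Hnrnp, 7 for Snrp, 8 for Sf3, 8 to 9 for Prpf, 49 to 54 for core spliceosome, 26 to 28 for regulators, 9 to 10 for kinase and import genes and 5 to 7 for exon junction genes. Means over probe sets reversed Sf3a2 to -0.15 under both versions, and Srsf3 to -0.14 when those above both floors were averaged. The cause was not tested. Signal near the floor limits genes such as Snrpd3, Prpf3 and Sf3b5. No paired analysis was possible because there is 1 group. With 1 sample left, no difference could be formed.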
